A study of Homo sapiens with 48 samples.

Results

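Interferon-stimulated genes are the antiviral and immune-regulating genes that cells switch on after an interferon signal. The set described here was drawn up by name and holds 41 genes, and its measurements are all array probes whose platform annotation gives one of those symbols. That search found 61 probes for 40 of the 41 genes, among 20046 named genes on the array; STAT2, the STAT protein of the type I interferon complex, was not analysed here. After a filter on dim probes 37 of the 61 probes and 30 genes could be tested.

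In the textbook pathway, type I interferons bind the receptor pair IFNAR1 and IFNAR2, the kinases JAK1 and TYK2 are activated, and a complex that holds STAT2 and IRF9 binds the interferon-stimulated response element in target promoters. Interferon gamma acts through its own receptor and a different promoter sequence. Double-stranded RNA, including some small interfering RNAs (siRNAs), can start the pathway through cytoplasmic sensors such as IFIH1 and RIGI or through EIF2AK2, which is why the genes also serve as a check on transfection. Glucocorticoids are known to restrain many inflammatory and interferon-driven genes in immune cells.

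The cells were a clonal U2OS osteosarcoma line that stably expresses wild-type rat glucocorticoid receptor alpha, so all groups share 1 clone and the added rat receptor. Cells received no siRNA (NI), a nonspecific siRNA (siNS) or a single siRNA against Hic-5 (siHic5_2), a focal adhesion protein and nuclear receptor coregulator encoded by TGFB1I1. Transfected wells had 60 pmol of siRNA, and dexamethasone, a synthetic glucocorticoid, was present for 0, 2, 4 or 24 h before a common harvest. There were 12 groups of 4 arrays, and nothing in the labels ties replicates to separate cultures; p-values therefore reflect only the spread between these samples, which may be technical. Because the siRNA against Hic-5 is represented by 1 sequence, its effect on Hic-5 and any effect of that sequence on other genes cannot be told apart.

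The knockdown and the hormone were visible on the arrays. TGFB1I1 differed between siHic5_2 and siNS by -3.41 and -3.33 on the log2 scale at 0 and 2 h, and it was at least 10.6 and 5.71-fold lower at 4 and 24 h, when no siHic5_2 array was above background. The glucocorticoid target TSC22D3 rose by 4.32 at 24 h in NI cells and 4.49 in siNS cells, and by 2.81 in siHic5_2 cells, in which it was already higher without hormone (log2 level 9.58 ± 0.33 against 7.90 ± 0.38 in siNS, SD, n = 4 each). Median array intensity ran from 133.6 to 193, with 15009 to 18145 probes above background. Of the markers listed for cell identity, 5 of 7 osteoblast lineage genes could be tested and COL1A2 and TWIST1 were below the detection filter. Of 6 blood cell markers 2 could be tested, and PTPRC, CD3E, LYZ and HBB were above background on 0 arrays. Of 5 epithelial markers 4 could be tested (3 of them above background on all 48 arrays) and CDH1 could not, and of 4 endothelial markers 2 could be tested and PECAM1 and CDH5 could not. In bulk samples, fewer cells expressing a gene and less RNA per cell cannot be told apart.

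Many promoters of these genes carry the core of the interferon-stimulated response element. RefSeq promoter windows (GRCh38.p14, 250 bases before to 50 after each start) were found for 32 of the 41 genes, and the response element core (GAAA, any 2 bases, GAAA; searched on both strands, overlapping matches allowed) was present in at least 1 window of 24 of the 32. Among 35116 promoter windows of all genes the core was present in 3.57%. Of the gamma-activated sequence only the narrow form TTCCNGGAA was searched, and looser forms were not. It was present for 2 of the 32 genes, BST2 and IFI27, and in 1.15% of all windows. The glucocorticoid response element (GNACA, any 3 bases, TGTNC) was present for 0 of the 32 and in 0.39% of all windows. Below are the windows of 4 genes on which the results turn: IFIT1, which fell with the siRNA against Hic-5, IFIT5 and TAP1, which rose with it, and ISG15, which rose with hormone. Each is written 5' to 3' on the gene's strand, with every match to the response element core or its reverse complement in capitals.
IFIT1, chr10:89392373-89392672 (+): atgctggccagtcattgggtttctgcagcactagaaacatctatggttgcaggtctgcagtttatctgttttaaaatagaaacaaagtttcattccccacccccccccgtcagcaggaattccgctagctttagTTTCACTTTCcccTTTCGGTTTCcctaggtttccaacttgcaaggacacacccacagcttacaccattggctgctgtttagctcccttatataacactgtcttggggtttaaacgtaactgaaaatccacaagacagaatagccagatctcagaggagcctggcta
IFIT5, chr10:89414318-89414617 (+): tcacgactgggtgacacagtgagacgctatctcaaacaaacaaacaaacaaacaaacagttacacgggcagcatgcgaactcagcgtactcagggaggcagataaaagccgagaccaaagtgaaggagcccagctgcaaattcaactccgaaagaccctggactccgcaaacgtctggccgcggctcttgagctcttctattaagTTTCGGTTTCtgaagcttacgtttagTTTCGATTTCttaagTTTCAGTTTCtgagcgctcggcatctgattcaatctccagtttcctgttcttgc
TAP1, chr6:32853655-32853954 (-): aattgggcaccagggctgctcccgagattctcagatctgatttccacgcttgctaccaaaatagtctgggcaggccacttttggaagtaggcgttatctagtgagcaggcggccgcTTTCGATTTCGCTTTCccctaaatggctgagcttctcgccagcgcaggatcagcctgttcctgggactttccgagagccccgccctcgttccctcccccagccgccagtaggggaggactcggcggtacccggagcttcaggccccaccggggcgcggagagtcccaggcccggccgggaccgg
ISG15, chr1:1013247-1013546 (+): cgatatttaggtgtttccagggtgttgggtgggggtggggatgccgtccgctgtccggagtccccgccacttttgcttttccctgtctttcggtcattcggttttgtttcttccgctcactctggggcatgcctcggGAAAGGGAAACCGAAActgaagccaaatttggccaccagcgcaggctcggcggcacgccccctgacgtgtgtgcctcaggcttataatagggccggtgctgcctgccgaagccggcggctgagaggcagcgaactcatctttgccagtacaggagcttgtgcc

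All 4 windows hold at least 2 matches, and those of TAP1 and ISG15 overlap one another. Genes that moved in opposite directions thus share the core. TAP1, a subunit of the peptide transporter of antigen presentation, lies head to head with the immunoproteasome gene PSMB9, the nearest of their listed starts being 488 bases apart. IRF9 and IRF1, which gave some of the largest hormone responses, had no match to any of the 3 sequences as searched in their windows. That says only that these letters are not there. The IRF1 window does hold TTCCCCGAA, which is close to the gamma-activated form searched but outside it. No window was listed for IFIT2, MX2, OAS2, OASL, IFITM2, IRF7, USP18 or TRIM22.

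Over all 48 arrays, with hormone-treated and transfected cells included, a part of the interferon-stimulated set was above background. Of the 30 tested genes 13 were above background on all 48 arrays: the antiviral ubiquitin-like protein ISG15, the nuclease ISG20, the mitochondrial protein IFI6, the membrane restriction factors IFITM2 and IFITM3, the transcription factors IRF1 and IRF9, TRIM22, PARP9, PARP12, PSMB8, TAP1 and the double-stranded RNA kinase EIF2AK2. Another 4 were above it on 39 to 47 arrays (IFIT1, XAF1, HERC6 and SAMD9) and 13 on 24 or fewer. The remaining 10 genes had no probe that passed the filter of 4 arrays. MX1 and MX2, the antiviral dynamin-like GTPases, OAS2, one of the synthetases that activate RNase L, and HERC5, the ISG15 ligase, were above background on 0 arrays. IFITM1, IRF7 and the virion tether BST2 were above background on 1 array each, and IFI27, RSAD2 (viperin) and its neighbour CMPK2 on 2 each.

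**Figure D1:**
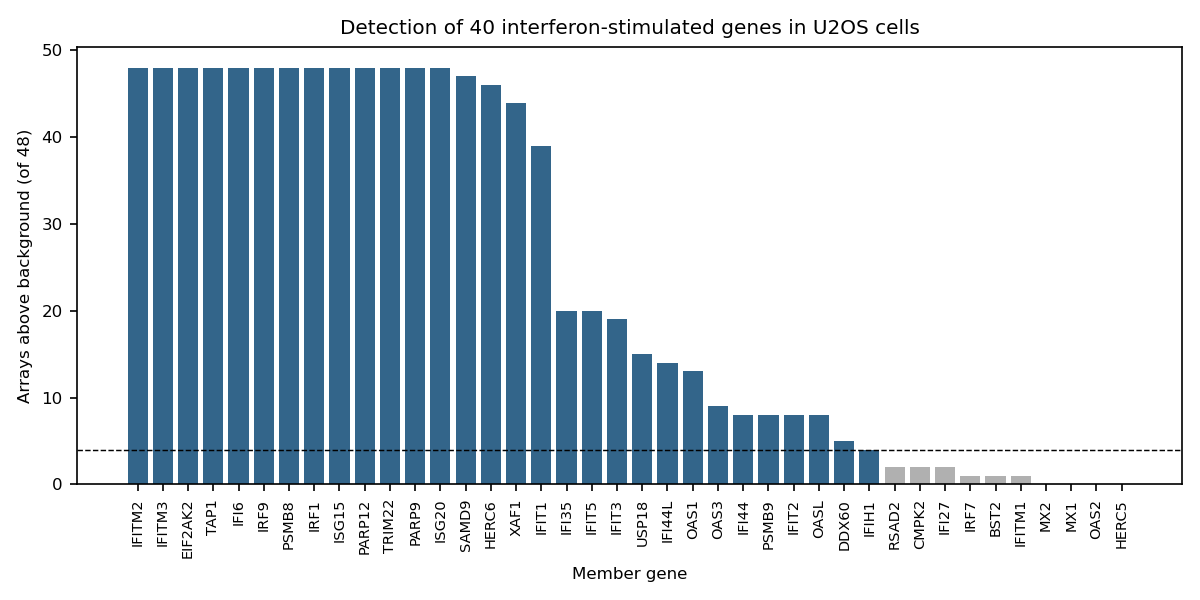
Number of arrays, of 48, on which the probe representing each gene was above background, for the 40 genes with a probe. Blue bars are genes that passed the filter of 4 arrays (dashed line) and grey bars those that did not; 13 genes reach 48 and 4 stand at 0.

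No difference between cells with the nonspecific siRNA and cells without siRNA passed the test for any of the 30 genes. The labels do not say whether NI wells received the transfection reagent. None of the 12 groups is labelled as given interferon, so whether these cells respond to it was not tested. Over the 4 times (16 arrays against 16), 0 of 30 differed between siNS and NI at a limma adjusted p under 0.05, and the same held for 0% of the 11886 genes tested. At an unadjusted p under 0.05 there were 1 of the 30 and 189 genes in all. Same-numbered siNS and NI arrays deviated together (mean correlation 0.453 over 16 pairs). The test does not use this pairing, so its standard errors may be too wide, though with the replicate number as a block 0 were called too. Differences ran from -0.15 to 0.25 on the log2 scale with a median of 0.01, against 0.00 over all genes.

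The size of an undetected response can be bounded gene by gene where a gene was above background. The 95% intervals of siNS minus NI reached from -0.42 at the lowest to 0.59 at the highest, which is 1.51-fold, and 29 of the 30 lay wholly between -0.5 and 0.5. Of the 30, 13 were above background on 24 or fewer arrays, and their intervals bound the reading rather than the RNA. For the 13 genes above background on all arrays the highest upper limit was 0.43, or 1.35-fold. ISG15 differed by -0.04 (interval -0.18 to 0.10) and IFIT1, which binds viral RNA ends, by 0.19 (-0.21 to 0.59). The oligoadenylate synthetase-like gene OASL had the largest difference, 0.25 (0.03 to 0.47; unadjusted p = 0.0281 and limma adjusted p = 1). IRF9 differed by 0.15 (-0.01 to 0.31). OAS1, another synthetase, differed by -0.04 (-0.39 to 0.31), and was above background on 13 arrays.

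At single times the test also called 0 of 30 genes, with 0% of all genes called at 0, 2, 4 and 24 h. Unadjusted p-values under 0.05 were found for 0, 1, 0 and 0 of the 30. The intervals at single times were wider than those of the mean over times. At 2 h the differences ran from -0.49 (IFIT3, 95% interval -1.02 to 0.04) to 0.58 (OASL, 0.13 to 1.02), and IFIT1 differed by 0.49 (-0.30 to 1.29). The 15 probes of the 10 genes below the filter gave 5 readings above background among 240 in NI, 1 among 240 in siNS and 3 among 240 in siHic5_2; the filter counts arrays of all states, so that low numbers in each are fixed by it. MX1 log2 levels lay between 4.64 and 5.59 on all 48 arrays. Probes for 14 interferon genes (IFNA1, IFNB1, IFNG, IFNL1 and others) gave 1, 1 and 3 readings above background among 304 in each of the same states, and 0 of the 14 genes passed the filter.

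The siRNA against Hic-5 differed from no siRNA where the nonspecific siRNA did not reach the threshold. Over the 4 times 12 of 30 genes were called between siHic5_2 and NI, 7 higher and 5 lower (40%), against 55.8% of all genes (30.6% higher and 25.2% lower). The higher genes were TRIM22 (1.22), TAP1 (1.04), IFIT5 (0.82), IRF1 (0.57), IFI35 (0.30), ISG15 (0.27) and PSMB8 (0.18), and the lower ones IFIT1 (-0.92), PARP9 (-0.46), IFITM2 (-0.34), OASL (-0.31, with no siHic5_2 array above background and no bound above 1) and USP18 (-0.31). IFI6 was not called on its representative probe (-0.18). A second IFI6 probe, above background on all 48 arrays, was called lower than in NI (-0.48, limma adjusted p = 0.000396 among all kept probes). Against siNS that probe was not called at any time. IFI35, with a limma adjusted p of 0.041, was no longer called when any of 15 single arrays was left out, for example NI 24 h replicate 3 (0.25, adjusted p = 0.0861). Within the 6 slides, each of which held both states, IFIT1 was lower on 5 (-1.72 to 0.07), IFITM2 on 5 (-0.69 to 0.01), OASL on 4 (-0.87 to 0.23) and USP18 on 4 (-1.44 to 0.68). ISG15 was higher on 5 (-0.07 to 0.55), IFI35 on 5 (-0.50 to 0.88), PSMB8 on 3 (-0.07 to 0.62), and TRIM22 and TAP1 on all 6. These slide values average all hormone times, which the 2 states did not share equally on a slide. Differences by siRNA and by hormone cannot be told apart in them.

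**Figure D2:**
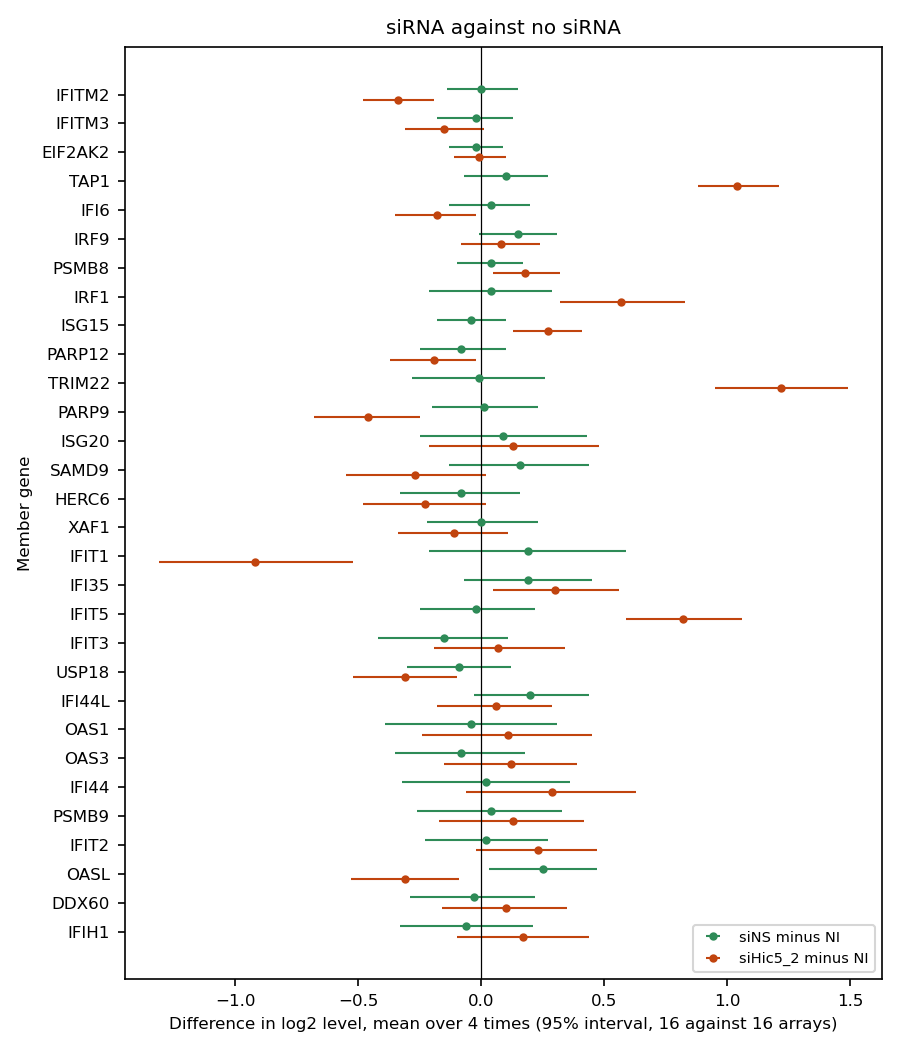
Difference in log2 level of the 30 tested genes from cells with no siRNA, averaged over the 4 times, for siNS (green) and siHic5_2 (red), with 95% intervals from the limma fit of 16 against 16 arrays. The siNS points lie between -0.15 and 0.25, while siHic5_2 points reach from -0.92 (IFIT1) to 1.22 (TRIM22).

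Set against the nonspecific siRNA, the siRNA against Hic-5 raised TRIM22 and TAP1 at every time and lowered others, with no common direction. At 0, 2, 4 and 24 h 6, 6, 3 and 6 of the 30 genes were called, 4, 3, 3 and 4 of them higher and 2, 3, 0 and 2 lower. Of all genes 25.9, 25.8, 30.3 and 29.7% were called at those times, with 13.8, 14.3, 16.3 and 15.8% higher and 12.1, 11.5, 14.1 and 13.9% lower. The shares among the 30 were 20, 20, 10 and 20%, and whether they differ from the background was not tested. Of the 30, 13 were above background on 24 or fewer arrays. The medians of the 30 were 0.07, 0.10, 0.05 and -0.12, against 0.01 to 0.03 over all genes. In all, 6 genes were called higher at some time and 4 lower, 0 in both directions, and 20 were called at no time.

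TRIM22, an antiviral ubiquitin ligase of the tripartite motif family, gave the largest rise. Its log2 levels at 0 h were 7.81, 7.37, 7.84 and 7.81 on the 4 siNS arrays and 9.49, 9.38, 9.03 and 9.37 on the siHic5_2 arrays, while NI arrays read 7.91, 7.40, 7.52 and 7.50. Every siHic5_2 array stood above every control array at 0 h. The TRIM22 differences at 0, 2, 4 and 24 h were 1.61, 1.47, 0.94 and 0.90 (SE 0.27 each; limma adjusted p = 1.53e-05, 5.27e-05, 0.00643 and 0.00835). At 24 h the groups overlapped, since siNS replicate 3 read 8.71, and without siNS replicate 4 (6.94) the difference there was 0.60 and no longer called (adjusted p = 0.0884).

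TAP1 behaved alike. Its levels at 0 h were 9.55, 9.67, 10.28 and 9.62 in siNS and 10.88, 10.82, 11.05 and 10.84 in siHic5_2. The 2 groups did not overlap at any time, and the TAP1 differences were 1.12, 0.94, 0.98 and 0.73 (SE 0.16 each; limma adjusted p = 2.46e-06, 3.48e-05, 1.73e-05 and 0.000741). Against NI they were 1.10, 1.05, 1.14 and 0.88. The immunoproteasome subunit PSMB8 differed by 0.13, 0.14, 0.31 and 0.01 with 0 calls on the probe that represents it, and PSMB9 by -0.04, 0.47, -0.08 and 0.01 with 0 calls on the probe that represents it. A dimmer PSMB9 probe was above background on 2 siHic5_2 arrays and 0 siNS arrays at 0 h and was at least 1.25-fold higher there (limma adjusted p = 0.00984 among all 20912 kept probes, of which 20.8% were called). The faintest of 4 PSMB8 probes, above background on 9 arrays, was also called higher at 0 h, by 0.70 (SE 0.20; adjusted p = 0.00971), while the other two PSMB8 probes had 0 calls for the knockdown.

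The IFIT genes, whose products bind foreign RNA, split. IFIT1 levels at 2 h were 8.19, 8.33, 7.92 and 8.69 in siNS and 7.64, 6.79, 6.06 and 6.35 in siHic5_2, with no overlap. IFIT1 differed by -1.04 at 0 h and -1.57 at 2 h (SE 0.39 each; limma adjusted p = 0.045 and 0.00237), and by -0.97 and -0.83 at 4 and 24 h without a call. At 24 h 0 of 4 siHic5_2 arrays had IFIT1 above background. IFIT5 went the other way: at 24 h its levels were 5.35, 5.72, 5.76 and 5.47 in siNS, none above background, and 6.93, 6.58, 6.26 and 6.85 in siHic5_2, all above it. IFIT5 was at least 1.41-fold higher at 2 h and at least 1.36-fold higher at 24 h (measured differences 1.19 and 1.08, SE 0.23; limma adjusted p = 0.000147 and 0.000384). IFIT2 was at least 1.08-fold higher at 0 h, with 2 of 4 siHic5_2 arrays and 0 of 4 siNS arrays above background (levels 6.67, 6.09, 5.46 and 6.70 against 5.43, 5.22, 5.21 and 5.81; adjusted p = 0.0121). IFIT3 differed by 0.12, 0.43, 0.22 and 0.13 with 0 calls.

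OASL was lower than in siNS before hormone and at 2 h. At 0 h it was above background on all 4 siNS arrays (6.53, 7.15, 6.26 and 6.60) and on 0 siHic5_2 arrays (5.62, 5.53, 5.39 and 5.20). It was at least 1.35-fold lower at 0 h (measured difference -1.20, SE 0.22, limma adjusted p = 7.59e-05), and the 2 h difference of -0.74 (adjusted p = 0.0102) allows no bound above 1. Against NI the OASL difference was -0.94 at 0 h (limma adjusted p = 0.00128), and -0.17 at 2 h without a call (0.64). In NI cells, whose 4 arrays read 6.84, 5.90, 6.13 and 6.63 at 0 h, 2 were above background. The remaining called differences were small: ISG15 by 0.40 at 0 h and 0.40 at 4 h, IFITM2 by -0.40 at 2 h and -0.67 at 24 h, the interferon regulatory factor IRF1 by 0.78 at 24 h, and PARP9, a member of the ADP-ribosyltransferase family, by -0.71 at 24 h (SE 0.14 to 0.25). A second PARP9 probe, above background on 45 arrays, differed by -0.30 at 24 h.

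Some of these calls ended when 1 array was left out. IFIT1 at 0 h was lost on omitting siNS replicate 2, 3 or 4, or replicate 2, 3 or 4 of siHic5_2 (differences -1.07 to -0.73), IFIT2 at 0 h without siHic5_2 replicate 1 (0.67) or 4 (0.66), and ISG15 at 0 h on omitting siNS replicate 2 (0.37) or 3 (0.32), or replicate 2 (0.37) or 4 (0.31) of siHic5_2. At 2 h OASL was lost without siNS replicate 2 (-0.51), and IFITM2 on omitting siNS replicate 1, 2 or 4, or replicate 1 or 4 of siHic5_2 (-0.40 to -0.32). At 4 h ISG15 was lost without siNS replicate 3 (0.32) or siHic5_2 replicate 4 (0.38). At 24 h IRF1 was lost without siNS replicate 1 (0.60) or siHic5_2 replicate 2 (0.66) or 4 (0.65), and PARP9 without siHic5_2 replicate 4 (-0.61). The count of 3 at 4 h became 5 without siNS replicate 2 or siHic5_2 replicate 3 and 6 without siHic5_2 replicate 1. Fitted with only the compared groups, IFIT1, IFIT2 and ISG15 at 0 h, IFITM2 at 2 h and TRIM22 at 24 h were not called (adjusted p 0.0629 to 0.111). With NI as the control in place of siNS, IFIT1 at 0 h (-0.93) and OASL (-0.17) and IFITM2 (-0.19) at 2 h were not called. Their limma adjusted p-values were 0.0723, 0.64 and 0.364, and the other knockdown calls stood.

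**Figure D3:**
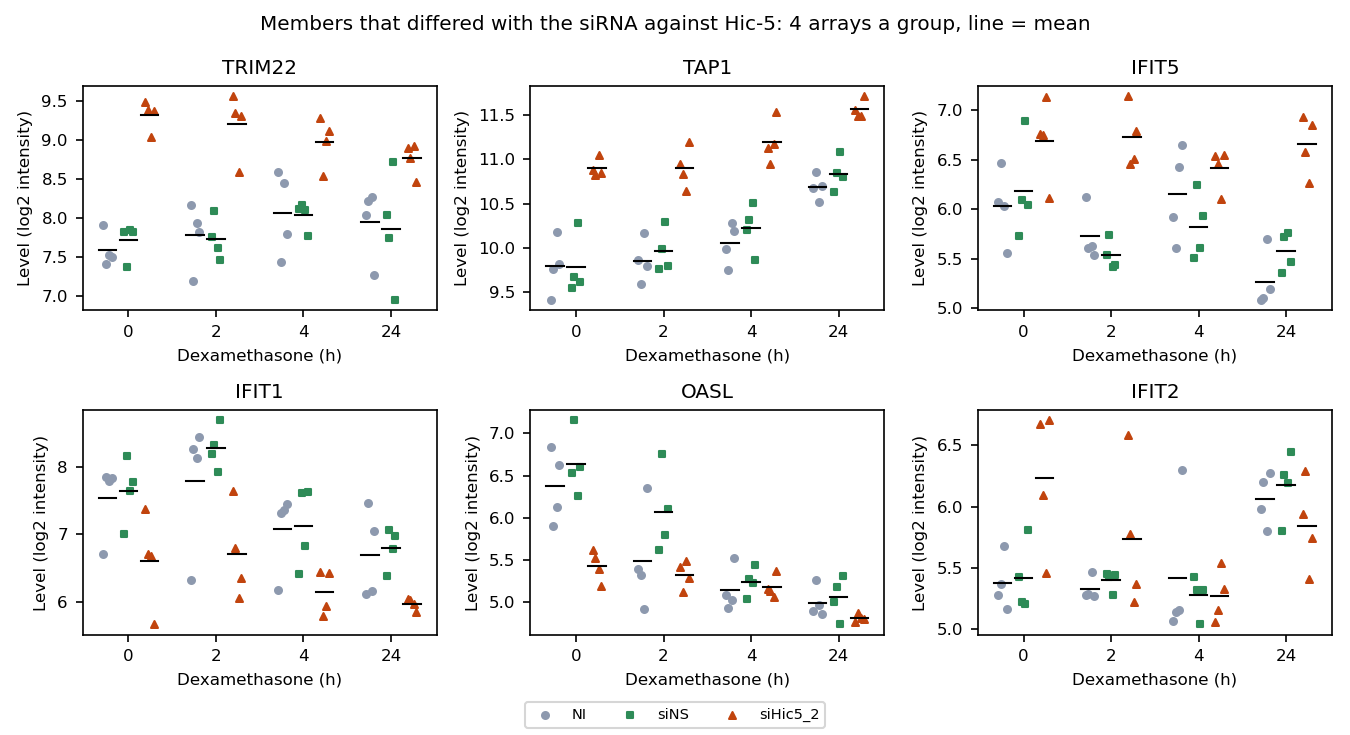
Log2 level on each array of 6 genes called between siHic5_2 and siNS, by hours of dexamethasone; circles are NI, squares siNS and triangles siHic5_2, with a line at each group's mean of 4 arrays. TRIM22 and TAP1 triangles lie above the other symbols at 0 h, IFIT1 triangles lie below the siNS squares at 2 h, and OASL symbols of all states are at or below 5.52 at 4 h.

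Dexamethasone moved about as large a share of the set as of all genes, and in both directions. At 24 h 14 of 30 genes were called in NI cells (7 higher, 7 lower), 14 in siNS cells (8 and 6) and 11 in siHic5_2 cells (5 and 6), which is 46.7, 46.7 and 36.7%, against 39.3, 39.6 and 34.8% of all genes (18.6, 19.7 and 17.8% higher and 20.7, 20 and 17% lower). USP18, IRF9, ISG15, SAMD9 and TAP1 rose in all 3 states and IRF1, IFITM3 and, on its representative probe, PSMB8 fell in all 3. OASL was also called lower in all 3, but in siHic5_2 it was not above background at 0 or 24 h. Earlier the counts were small: at 2 h 2, 1 and 1 genes (background 2.97, 4.83 and 2.89%) and at 4 h 4, 3 and 4 (background 8.82, 8.19 and 11.1%). Pairing arrays by replicate number within a transfection state (a replicate block), 4 genes in place of 1 were called in siNS cells at 2 h: OASL (-0.56), SAMD9 (0.80) and IFITM2 (0.31) joined IRF1, which is 13.3% against 9.66% of all genes. With the same block 18, 19 and 15 of the 30 were called at 24 h in NI, siNS and siHic5_2 (60, 63.3 and 50%, against 49.2, 49.5 and 45% of all genes). The added calls in NI were IFIT1, IFITM2, HERC6 (0.51, adjusted p = 0.0179) and PARP9 (0.37, 0.0455), and in siNS IFIT1, IFITM2, IFI44L, ISG20 (0.56, 0.0352) and EIF2AK2 (-0.26, 0.0197). In siHic5_2 they were IFIT1, XAF1, IFI6 (0.32, 0.0323) and TRIM22 (-0.56, 0.0482).

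USP18, the protease that removes ISG15 from proteins and blocks signalling at the type I receptor, had the strongest rise among the 30 representative probes. Its log2 levels in NI cells were 5.27, 5.17, 5.33 and 5.12 at 0 h and 8.43, 8.48, 8.48 and 8.69 at 24 h, and in siHic5_2 cells 5.11, 5.30, 5.10 and 5.31 at 0 h and 8.52, 7.90, 8.26 and 7.65 at 24 h. No array was above background at 0 or 2 h, 1 in each state was at 4 h, and all 12 were at 24 h. USP18 was at least 4.69-fold higher at 24 h in NI, at least 4.66-fold in siNS and at least 3.7-fold in siHic5_2 (measured differences 3.30, 2.90 and 2.88, SE 0.21; limma adjusted p = 1.08e-16, 5.37e-15 and 9.22e-15). At 4 h in NI it was also called (measured difference 0.85, with no bound above 1), which was lost without NI 4 h replicate 2 (0.61, adjusted p = 0.0594).

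IFI44L, an interferon-induced gene of uncertain biochemical function, had probes that disagreed. The brighter of its 2 kept probes was above background on 14 arrays and differed by 0.43, 0.52 and 0.41 between 24 h and 0 h in NI, siNS and siHic5_2 cells, with 0 calls; the siNS difference was called with the replicate block (adjusted p = 0.0444). The second probe was above background on 12 arrays, all of them at 24 h. In NI cells it read 4.80, 4.92, 4.74 and 4.77 at 0 h and 8.63, 8.93, 8.64 and 8.56 at 24 h, in siNS 4.73, 4.70, 4.91 and 4.96 against 8.34, 8.23, 8.61 and 8.51, and in siHic5_2 5.28, 5.22, 4.81 and 5.15 against 8.77, 8.27, 9.14 and 8.48. Every 24 h array stood above every earlier one. By that probe IFI44L was at least 5.27, 4.95 and 5.52-fold higher (measured differences 3.88, 3.60 and 3.55, SE 0.15; limma adjusted p = 4.13e-23, 4.06e-22 and 1.01e-21 among 20912 kept probes, of which 32.3, 32.7 and 29.3% were called). The authors' processed values gave 3.64, 3.37 and 3.32 for the same probe. Which transcripts either probe reads was not tested.

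IRF9, the DNA-binding part of the type I interferon complex, rose late. Its NI levels were 9.67, 9.14, 9.31 and 9.47 at 0 h, 9.35, 9.04, 9.38 and 9.29 at 4 h and 10.59, 10.58, 10.40 and 10.37 at 24 h. The 24 h group lay above both earlier ones. IRF9 rose by 1.09, 0.89 and 0.64 in NI, siNS and siHic5_2 cells (SE 0.16 each; limma adjusted p = 4.97e-07, 1.72e-05 and 0.00165). In siHic5_2 cells it first fell at 4 h by 0.58 (adjusted p = 0.0112), a call that ended without siHic5_2 0 h replicate 1 (-0.46) or 4 h replicate 4 (-0.47). The groups at 0 and 24 h overlapped in siHic5_2, whose 0 h arrays ran from 9.27 to 10.12.

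SAMD9, a restriction factor for poxviruses, was the member that rose at 4 h in all 3 states. It read 7.11, 7.07, 6.98 and 7.40 in NI cells at 0 h and 8.14, 8.41, 8.36 and 8.61 at 4 h. At 4 h it was higher by 1.24, 1.05 and 1.00 and at 24 h by 0.94, 1.12 and 1.38 in NI, siNS and siHic5_2 (SE 0.28 each; limma adjusted p 0.000119 to 0.0126). Without siHic5_2 0 h replicate 4, which read 6.01, the 4 h difference in siHic5_2 was 0.76 and not called (adjusted p = 0.0942). ISG15 rose by 0.73, 0.51 and 0.39 at 24 h (SE 0.14; adjusted p = 3.68e-05, 0.0028 and 0.0241), without overlap of the groups in NI and siNS. In siHic5_2 the call ended without 0 h replicate 1 (0.33) or 3 (0.34) or 24 h replicate 2 (0.23), the last of which read 9.64. TAP1 rose by 0.89, 1.06 and 0.67 (SE 0.16), while its neighbour PSMB9 differed on its representative probe by -0.07, 0.11 and 0.16 with 0 calls. The second PSMB9 probe was called lower in siHic5_2 at 24 h, by at least 1.2-fold (measured difference -0.86, SE 0.33; limma adjusted p = 0.0461 among all kept probes). IFIT2 was called higher in NI and siNS (measured differences 0.68, with no bound above 1, and 0.75, at least 1.04-fold), from levels not above background, PARP12 by 0.49 and 0.59 in the same states, and PARP9 by 0.70 in siNS. The second PARP9 probe differed by 0.17 in siNS. In siHic5_2 cells IFIT2 was instead called lower at 4 h (-0.96, limma adjusted p = 0.00603), from 2 of 4 arrays above background to 0, with no bound above 1.

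IRF1, which drives antigen presentation and many interferon gamma targets, fell from 2 h on in all 3 states. In NI cells it read 8.91, 9.77, 9.34 and 9.84 at 0 h and 8.09, 8.18, 8.76 and 8.17 at 2 h, and in siNS 9.40, 9.55, 9.30 and 9.68 against 8.49, 8.26, 8.51 and 8.44. Neither pair of groups overlapped. The IRF1 changes at 2, 4 and 24 h were -1.16, -1.24 and -1.42 in NI, -1.06, -1.17 and -1.51 in siNS and -0.86, -0.85 and -1.02 in siHic5_2 (SE 0.25; limma adjusted p from 4.32e-06 to 0.0491). In siHic5_2 the call at 2 h ended without 0 h replicate 2, 3 or 4 or 2 h replicate 1 or 2 (-0.86 to -0.60), and the call at 4 h without 0 h replicate 2, 3 or 4 or 4 h replicate 1 or 3 (-0.81 to -0.61). OASL was lower in NI by 2 h (-0.88, not called without 0 h replicate 1 or 4 or 2 h replicate 2 or 3, -0.82 to -0.69) and fell in NI and siNS at 4 h to below background, at least 1.14 and 1.41-fold lower. It fell by 1.38 in NI and 1.57 in siNS at 24 h, to below background, which is at least 1.13 and 1.33-fold lower; in siHic5_2, where it was not above background at either time, no fold is given. The apoptosis-associated factor XAF1 fell by 0.96 and 0.61 in NI and siNS, and with the replicate block was also called in siHic5_2 (-0.53, adjusted p = 0.0431). IFITM3 fell by 0.43, 0.39 and 0.74 in the 3 states. PSMB8 fell by 0.44, 0.52 and 0.64 on its representative probe, but its probes disagreed. The second PSMB8 probe, above background on all 48 arrays, differed by -0.31, -0.37 and -0.71 with a call in siHic5_2 (adjusted p = 0.211, 0.119 and 0.00227). The third, also above background on all 48, differed by -0.04, 0.01 and -0.50 with 0 calls, and the fourth PSMB8 probe had a call in siHic5_2, at least 1.19-fold lower (adjusted p = 0.000495). IFITM2 fell by 0.82 in siHic5_2, and with the replicate block was also called lower in NI (-0.31, adjusted p = 0.00361) and siNS (-0.33, adjusted p = 0.00195). IFIT1 differed by -0.84, -0.85 and -0.64 with no call, but with the replicate block its adjusted p was 0.00443, 0.00419 and 0.0318.

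The smaller falls leaned on single arrays. The IFITM3 call ended in NI without 0 h replicate 1 or 4 or 24 h replicate 1 or 3 (-0.38 each) and in siNS without 0 h replicate 2 (-0.26) or 24 h replicate 1 (-0.27) or 3 (-0.38). PSMB8 in NI was lost without 0 h replicate 4 (-0.31), and XAF1 in siNS without 0 h replicate 2 (-0.48) or 24 h replicate 1 (-0.44) or 3 (-0.52). IFIT5, called lower at 24 h in NI and siNS (measured differences -0.76 and -0.61) but not above background at that time, so that no bound above 1 exists, was lost in siNS without 0 h replicate 3 (-0.38) or 24 h replicate 1 (-0.54) or 4 (-0.58). EIF2AK2 (-0.32 in NI) was lost without NI 0 h replicate 2 (-0.28) or 24 h replicate 4 (-0.24). The rises of IFIT2 and PARP12 in NI were each lost without any of 4 arrays (0.61 to 0.65 and 0.41 to 0.46). The lower calls of OASL and IFIH1 in siHic5_2 at 24 h were each lost without any of 2 (-0.59 to -0.56 and -0.63 to -0.57). Both are on readings that reach the background. In siHic5_2 OASL was not above background at 0 or 24 h and IFIH1 was not at 24 h, and IFIH1 was above it on 4 of all 48 arrays.

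**Figure D4:**
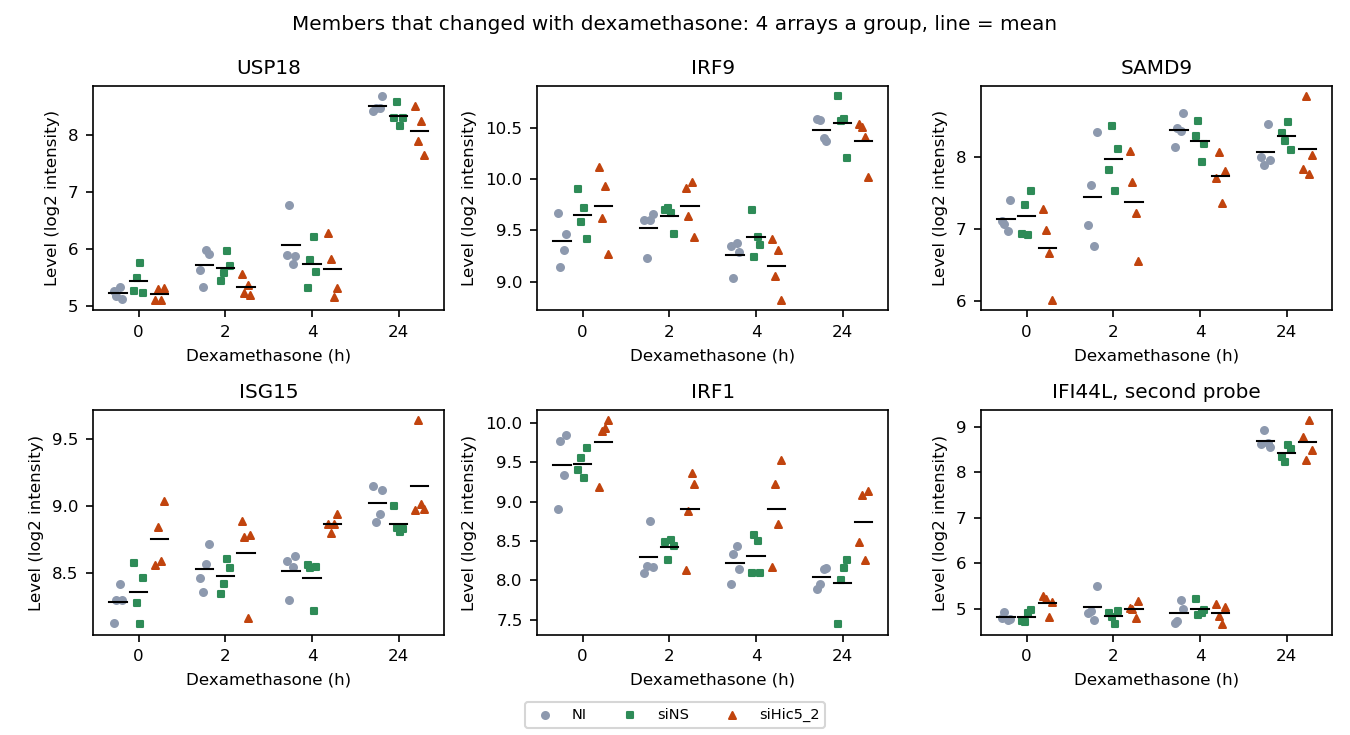
Log2 level on each array of 6 genes by hours of dexamethasone, with circles for NI, squares for siNS, triangles for siHic5_2 and a line at each group's mean of 4 arrays. USP18 and the second IFI44L probe stand at or below 6.78 until 4 h and between 7.65 and 9.14 at 24 h; IRF1 is lower from 2 h on.

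Whether the siRNA against Hic-5 altered the hormone response of these genes was tested as the difference of differences. Without a block 0 of 30 genes were called at 2, 4 or 24 h, against 0.135, 0.454 and 3.52% of all genes, with 1, 2 and 3 of the 30 at an unadjusted p under 0.05. With the replicate number as a block within each state 0, 1 and 3 were called (0, 3.33 and 10%), against 0.395, 1.79 and 9.9% of all genes. OASL fell less with hormone in siHic5_2 than in siNS by 1.13 at 4 h (SE 0.31; limma adjusted p = 0.0866, with the block 0.0151) and 0.95 at 24 h (0.0825, with the block 0.0154). Between 0 and 24 h IFIT2 differed by 0.75 in siNS and by -0.39 in siHic5_2, a difference of responses of -1.14 (SE 0.35; limma adjusted p = 0.0574, with the block 0.0234), and IFITM2 differed by -0.49 (0.197, with the block 0.0079). OASL was not above background in siHic5_2 at any time and IFIT2 was not in siNS at 0 h, so these sizes are on readings that reach the background. The 24 h rise of USP18 was measured in all states with 0 h levels below background, and its interaction was not called. The siHic5_2 cells without hormone already had more TSC22D3 and PDK4, the latter at 6.70 ± 0.90 with 3 of 4 arrays above background against 5.57 ± 0.32 and 0 of 4 in siNS (SD, n = 4 each); their part in these differences was not tested. Between siNS and NI 0 of 30 responses differed at 2, 4 or 24 h, with 0% of all genes called and 0, 0 and 0 of the 30 at an unadjusted p under 0.05.

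**Figure D5:**
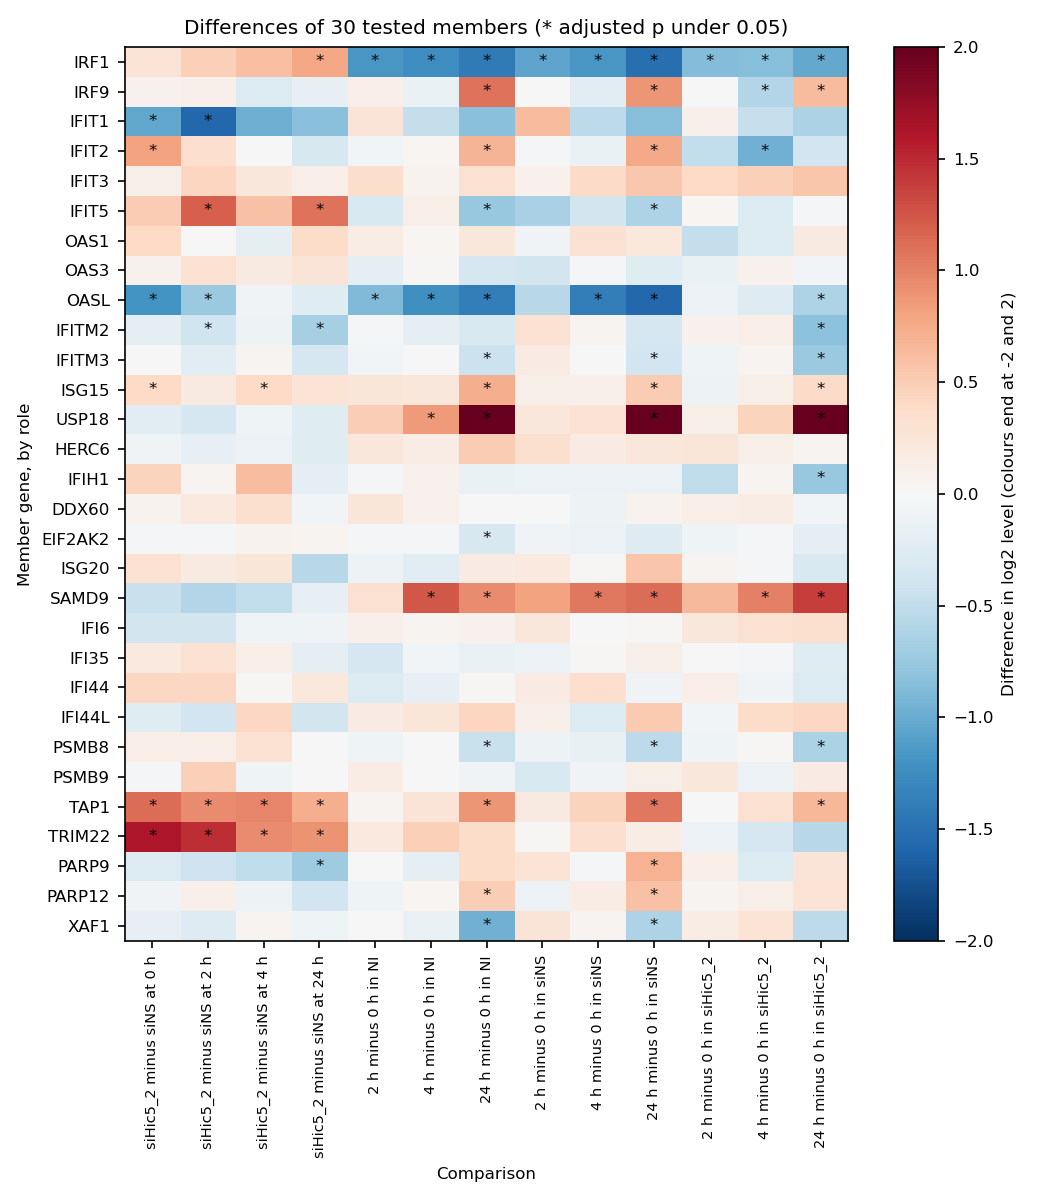
Differences in log2 level of the 30 tested genes, ordered by role, in the 4 knockdown comparisons (left) and the 9 hormone comparisons, with colours from -2 to 2 and a star at an adjusted p under 0.05. TAP1 and TRIM22 carry stars in all 4 knockdown columns, and USP18 in all 3 columns of 24 h against 0 h.

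Other parts of the pathway were read from lists of its receptors, kinases, sensors, negative regulators and further target genes. At 24 h of hormone the kinase genes JAK1 and JAK2 rose in all 3 states (JAK1 by 2.03, 1.93 and 1.48 and JAK2, from levels not above background, by at least 1.18, 1.89 and 1.44-fold in NI, siNS and siHic5_2), as did STAT3 (1.15, 1.31 and 1.74), while TYK2 fell by 0.60 and 0.59 in NI and siNS. Of 6 receptor chains 1, 2 and 1 rose and 1, 1 and 3 fell in the same states, against the background of all genes given above for 24 h (18.6, 19.7 and 17.8% higher and 20.7, 20 and 17% lower). The interferon gamma receptor chains moved apart: IFNGR1 rose by 0.92, 1.04 and 0.52 and IFNGR2 fell by 1.64, 1.57 and 1.28. Among 5 negative regulators SOCS3, an inhibitor of cytokine receptor signalling, fell by 1.42 in NI and 1.42 in siNS cells, and PTPN2, a phosphatase acting on JAK and STAT proteins, fell by 1.33, 1.36 and 0.91.

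Of 34 further interferon-stimulated genes that could be tested 10, 8 and 5 rose and 1, 2 and 5 fell at 24 h in NI, siNS and siHic5_2 cells, against 18.6, 19.7 and 17.8% of all genes higher and 20.7, 20 and 17% lower. HELZ2, a helicase and nuclear receptor coactivator, rose by 3.46, 3.53 and 3.43, and SP110, a nuclear body protein, by 3.43, 3.31 and 2.53 (limma adjusted p at most 1.68e-13). UBE2L6, the conjugating enzyme for ISG15, rose by 1.75, 1.62 and 1.43, and the guanylate-binding protein gene GBP1 was called lower in all 3 states with no 24 h array above background, at least 1.11 and 1.15-fold lower in NI and siNS and with no bound above 1 in siHic5_2. With the siRNA against Hic-5 5, 6, 4 and 0 of the 34 rose at 0, 2, 4 and 24 h and 3, 6, 3 and 7 fell, against 13.8, 14.3, 16.3 and 15.8% of all genes higher and 12.1, 11.5, 14.1 and 13.9% lower. SP110 was lower at each time (-1.06, -1.27, -1.78 and -1.84), and the inflammatory caspase CASP4 was higher at 0, 2 and 4 h (0.79, 0.77 and 0.91). Among 10 tested sensors and adaptors STING1, the adaptor of cytoplasmic DNA sensing, was higher by 1.16, 1.51 and 1.11 at those times and the kinase TBK1 by 0.42, 0.56, 0.54 and 0.46 at all 4, while 0 of the 10 were called between siNS and NI.

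Arrays lay on 6 slides, and slide differences between siHic5_2 and NI over the 4 times mix hormone times. Of 87 calls of these genes in the siRNA, knockdown and hormone comparisons, 86 could be read within slides that held both groups, and 75 had the same sign on every such slide; over all slide pairs 249 of 264 had it. Outside the comparison with NI, the exceptions were IFIT2 for the knockdown at 0 h (-0.35 to 1.48 over 4 slides), IFIT5 at 24 h in siNS (-1.54 to 0.04 over 3), ISG15 at 24 h in siHic5_2 (-0.06 to 1.08 over 4) and IRF9 at 4 h in siHic5_2 (0.03 on 1 slide). The 87 calls were made on these same arrays, so their signs within slides are not a separate test. For the hormone calls at 2 and 4 h in NI and at 4 h in siHic5_2 only 1 slide held both groups. TAP1 differed by 0.60 to 1.43 within slides at 0 h and TRIM22 by 1.22 to 2.00, and the 24 h rise of USP18 in NI by 3.10 to 3.21.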

How the data were processed

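Expression in 48 samples was measured on Illumina HT-12 bead arrays. Per the file headers, the deposited raw values are 1 bead intensity (not normalized) and 1 detection p-value per array for 47323 probes. The authors' own processed values, also deposited, are on a log2 scale. The submitters' processing notes name R 2.15.3 and limma 3.14.4; the sources used here do not say how arrays were normalized. Deposited detection p-value columns stood under other arrays' names (0 of 48 matched their own intensities, 32 matched another column), so detection was recomputed from 770 negative controls on each array; 887 control rows stayed out of the tests. The processed columns matched their own raw columns on 48 of 48 arrays.

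Intensities were normalized with neqc (limma 3.58.1, R 4.3.3; normexp, offset 16, quantile, log2). A probe counted as above background at a detection p under 0.01 and was kept if it did so on at least 4 arrays, leaving 20912 probes; each gene took its brightest kept probe, giving 11886 genes. Symbols came from the platform annotation, which can be old, and probe sequences were not checked. One limma model of 12 group means (36 residual degrees of freedom) was fitted to all genes, with Benjamini-Hochberg adjustment per contrast; calls were made below an adjusted p of 0.05. The script was tested on simulated data. Precision is set by the number of arrays, with a median standard error of 0.202 for a difference between groups of 4, 0.285 for an interaction and 0.101 for a mean over times. Where a group had no array above background, a fold is a bound: the brighter group's mean is set against a floor, taken on every array of the dim group as its lowest signal above background (log2 5.91 to 6.52) or, if larger, the gene's own value, then averaged.

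The gene set and the pathway lists were chosen with earlier results of these data known. Named genes were those called in any contrast, up to the 6 largest per family of comparisons, with IFIT1, MX1, ISG15, OAS1, STAT2 and IRF9 in any case, and up to 4 genes per pathway list and direction. The second IFI44L, PSMB9, PARP9 and IFI6 probes and the further PSMB8 probes were named after their values were seen. Same-numbered arrays within a transfection state deviated together (12 of 12 pairs in each state over 0.1; mean correlations 0.476, 0.438 and 0.306 in NI, siNS and siHic5_2), so the numbers were taken to pair arrays in hormone comparisons, while between states they did not all do so. Promoter windows are RefSeq's, GRCh38.p14. Alternatives were the processed values, no background correction, no detection filter, every kept probe, the replicate number and the slide as blocks, only the compared groups, NI as the control for the knockdown, and leaving out each array.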

Additional observations from a re-analysis of the deposited data

Results flagged for a closer look

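Within groups of 4, an array was singled out where its gap to the nearest other array exceeded Dixon's critical share of the group's range. This picked out 33 of 360 groups of the 30 tested genes (9.17%), where chance alone would pick about 1 in 20. All values are log2 levels. IFIT1 was low on replicate 1 of NI cells at 3 times: it read 6.70 at 0 h (nearest other 7.79), 6.32 at 2 h (8.13) and 6.17 at 4 h (7.31).

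At 2 h in NI cells these were IFIT2 on replicate 3 (5.47, nearest 5.29), IFIT5 on replicate 1 (6.12, nearest 5.63), IRF1 on replicate 3 (8.76, nearest 8.18), IRF9 on replicate 2 (9.23, nearest 9.60), DDX60 on replicate 3 (6.50, nearest 5.57). At 4 h in NI cells these were IFIT2 on replicate 4 (6.30, nearest 5.16), IFI6 on replicate 3 (9.94, nearest 10.56), USP18 on replicate 2 (6.78, nearest 5.90).

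At 0 h in siNS cells these were OAS3 on replicate 3 (6.40, nearest 5.75), IFITM3 on replicate 2 (11.50, nearest 10.99), TRIM22 on replicate 2 (7.37, nearest 7.81), TAP1 on replicate 3 (10.28, nearest 9.67). At 2 h in siNS cells these were IFIT2 on replicate 3 (5.28, nearest 5.43), IFI35 on replicate 2 (6.35, nearest 6.02), PARP12 on replicate 3 (8.90, nearest 7.94). At 4 h in siNS cells these were ISG15 on replicate 3 (8.22, nearest 8.54), TRIM22 on replicate 4 (7.77, nearest 8.10). At 24 h in siNS cells these were IFIT3 on replicate 3 (5.89, nearest 6.25), ISG15 on replicate 1 (9.00, nearest 8.84).

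At 0 h in siHic5_2 cells these were IRF1 on replicate 1 (9.18, nearest 9.90), XAF1 on replicate 1 (6.60, nearest 6.88). At 2 h in siHic5_2 cells these were ISG15 on replicate 3 (8.17, nearest 8.77), DDX60 on replicate 1 (6.30, nearest 5.67), PSMB8 on replicate 3 (9.21, nearest 9.41). At 4 h in siHic5_2 cells these were IFIT3 on replicate 3 (5.92, nearest 6.34), IFITM3 on replicate 1 (10.92, nearest 11.24), PSMB8 on replicate 1 (9.34, nearest 9.53). At 24 h in siHic5_2 cells these were ISG15 on replicate 2 (9.64, nearest 9.02), OAS1 on replicate 2 (7.63, nearest 6.04), IFIH1 on replicate 1 (5.39, nearest 5.15).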

How the results depend on the processing

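Over 21 counts of called genes, 151 of 166 values under the planned and added alternatives stayed within 1.5 times the count given. For the 53 gene results followed singly, 495 of 524 alternative values kept direction and call, 29 kept direction and lost the call, and 0 changed sign. These results are those of the genes with the largest differences, up to 6 per family of comparisons, so smaller calls are not in the tally. Leaving out single arrays entered it only as the lowest and highest difference of each result, so it does not count every call lost that way. The 0 calls between siNS and NI over all times stood under every alternative run, the replicate block included (0). Fitted with only the compared groups, 3 genes were called for the knockdown at 0 h and 5 at 4 h, 0 with hormone at 2 h in NI and 0 in siHic5_2, 1 at 4 h in siHic5_2, and 1 each for the difference of responses between siHic5_2 and siNS at 4 and 24 h; this fit has fewer arrays to estimate the spread. The replicate block over all arrays, whose numbers do not pair siHic5_2 with siNS (mean correlation -0.0181), called 9 for the knockdown at 4 h and 2 for the 24 h difference of responses; same-numbered siNS and NI arrays correlated over 0.1 in 15 of 16 pairs. The replicate block within each state, chosen after seeing the data, called 4 at 2 h in siNS and 1 and 3 for the differences of responses at 4 and 24 h, and moved no other count beyond 1.5 times. The slide block called 1 at 2 h in NI, and at 2 h in siHic5_2 no detection filter and every kept probe each called 0. For these moves beyond the pairing the cause was not tested. Leaving out single arrays gave 4 to 6, 4 to 7, 2 to 6 and 4 to 6 calls for the knockdown at 0, 2, 4 and 24 h; 1 to 2, 3 to 4 and 10 to 15 with hormone at 2, 4 and 24 h in NI, 1 to 2, 3 to 4 and 11 to 15 in siNS, and 0 to 1, 2 to 4 and 8 to 12 in siHic5_2; 11 to 14 for siHic5_2 against NI; 0 to 1 for the 24 h difference of responses between siHic5_2 and siNS; and 0 for the others. Counts over all genes moved more: the within-state block gave 691, 1148 and 621 in place of 353, 574 and 344 at 2 h in NI, siNS and siHic5_2, 1680, 1553 and 2283 in place of 1048, 974 and 1323 at 4 h, and 47, 213 and 1177 in place of 16, 54 and 418 for the differences of responses at 2, 4 and 24 h (115 and 683 at 4 and 24 h with the block over all arrays; 32 to 86 at 4 h without single arrays). Only the compared groups gave 159 at 2 h in NI and 327 in siNS, the slide block 327 in siNS, and every kept probe 10456 in place of 6631 for siHic5_2 against NI, 5446 in place of 3607 for the knockdown at 4 h and 2027 in place of 1323 at 4 h in siHic5_2. Signal limits the rest: 10 genes were never tested, and 13 more were above background on 24 or fewer arrays.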
